A study of Mus musculus and Acomys cahirinus with 84 samples.

Results

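Carbonic anhydrases are described here across cultured skin fibroblasts of 3 rodent populations after gamma irradiation. The members are 10 genes named by symbol: Car2, Car3, Car4, Car5b, Car6, Car8, Car9, Car11, Car12 and Car13. All 10 were found among 56980 genes of the mouse count table, and all 10 among 19818 genes of the spiny mouse count table. The 10 were selected by symbol, and Car3 was chosen by its counts at 12 d, where it was seen to move in opposite directions in mice and spiny mice. That choice named no dose, so the 12 d values of Car3 in every group are description only.

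The cells were primary skin fibroblasts from mice labelled C56BL6, from wild mice and from the African spiny mouse Acomys cahirinus, a rodent of another genus. By the library names each population gave 4 animals, with 1 library of each animal in each of 7 groups, which makes 84 libraries in 21 groups of 4. Cultures received 0 Gy (untreated), 10 Gy or 20 Gy and were collected at 24 h or at 12 d. A further group at 12 d was untreated and passaged. All 24 h libraries carry 1 batch label and all 12 d libraries another, so a difference in time and one in batch cannot be told apart, and the times were not tested against each other. The labels give no sex, age, passage number, or density at collection. By the same names, the same 4 animals recur in every group of a population, although some wild mouse libraries went against their numbers, as described below. On that naming, p-values of fits without a block on the animal measure the spread between these animals. Those with the animal as a block measure the spread left after the level of each animal is taken out.

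Carbonic anhydrases convert carbon dioxide and water to bicarbonate and a proton, and back. Family members differ in where they sit: Car2, Car3 and Car13 are cytosolic, Car5b is mitochondrial, Car6 is secreted, and Car4, Car9 and Car12 sit at the cell membrane with the active site outside. Car8 and Car11 are related proteins that lack the zinc-binding residues needed for catalysis. Car3 is a slow enzyme best known from skeletal muscle, fat and liver, where it is very abundant, and Car9 and Car12 are known as targets of the hypoxia-inducible factors, which take part in pH regulation at the cell surface.

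In GRCm39, Car13 (chr3:14706787-14728062, plus strand), Car3 (chr3:14928572-14937583, plus strand) and Car2 (chr3:14951333-14965830, plus strand) lie close together on mouse chromosome 3, with Car1 between Car13 and Car3. In the spiny mouse assembly AcoCah2 the same genes lie close together on scaffold 16, again with Car1 between Car13 and Car3, with Car3 at 86432419 to 86442035. Mouse Car9 lies at chr4:43506966-43513729, plus strand, and spiny mouse Car9 at 85890262 to 85897106 of scaffold 1. The 250 bases before the annotated start of mouse Car3 and mouse Car9 are shown because the levels of these genes in mice and spiny mice did not overlap. Levels of Car2 and Car6 did not overlap between the species either, and their windows are not shown. Both windows are GRCm39, plus strand, 5′ to 3′, counted back from the canonical transcript start in a GENCODE annotation, which for Car3 lies before the gene start of the annotation used for counting. Capitals mark CANNTG, the E-box to which muscle and other helix-loop-helix factors can bind.

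Car3 chr3:14928239-14928488: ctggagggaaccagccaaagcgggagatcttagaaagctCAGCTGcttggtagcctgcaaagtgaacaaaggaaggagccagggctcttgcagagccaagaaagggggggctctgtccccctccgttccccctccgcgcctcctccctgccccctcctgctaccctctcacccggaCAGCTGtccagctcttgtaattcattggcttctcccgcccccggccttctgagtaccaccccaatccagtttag
Car9 chr4:43506716-43506965: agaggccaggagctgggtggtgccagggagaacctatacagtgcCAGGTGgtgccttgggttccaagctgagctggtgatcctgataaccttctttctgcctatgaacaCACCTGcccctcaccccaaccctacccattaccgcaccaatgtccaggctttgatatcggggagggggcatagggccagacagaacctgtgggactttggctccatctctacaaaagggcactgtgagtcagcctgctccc

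Each window held 2 matches to CANNTG, which reads the same on both strands. Of 21770 mouse promoter windows of the same length, 64.8% held at least 1. Neither window held ACGTG or GCGTG on either strand, the core letters of the hypoxia response element, which 41.3% of the windows held. These matches describe letters only, and no spiny mouse promoter was read.

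Libraries of C56BL6 mice held 26.65 to 39.82 M counts, those of wild mice 17.42 to 35.98 M, and those of spiny mice 25.55 to 52.86 M. Levels below are counts per M total counts (CPM), and values listed in a row are replicates 1, 2, 3 and 4 in that order. A floor of 3 counts came to 0.0753 to 0.113 CPM for C56BL6, 0.0834 to 0.172 CPM for wild and 0.0568 to 0.117 CPM for spiny mouse libraries, and it covers counting error only.

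Some libraries stood apart or went against their labels. The wild mouse libraries labelled replicates 1 and 4 at 12 d had 0 genes present in all libraries of one and at 0 in all of the other, while the remaining pairs of numbers had 7 to 21 such genes. The 12 d libraries labelled replicate 1 differed from the 24 h libraries labelled replicate 1 by 17 such genes and from those labelled replicate 4 by 0, so these libraries went against their numbers in this measure, and member calls in wild mice are given also without replicate 1. C56BL6 replicates 3 and 4 also had 0 such genes at both times, as did every pair of spiny mouse numbers. The measure therefore cannot tell those numbers apart. C56BL6 replicate 1 carried keratinocyte marker sums of 215.6 to 829.8 CPM, against 0.952 to 3.48 CPM in replicates 2 to 4. Spiny mouse cultures carried skeletal muscle markers in every group: 13 of the 14 listed were in the table, none was at 0 in a whole group, and their sum ran from 1262 to 11820 CPM. The labels call all of these cultures skin fibroblasts, and the 8 fibroblast markers summed to at least 16700 CPM in every spiny mouse library, 8969 CPM in every C56BL6 library and 8172 CPM in every wild mouse library. In bulk RNA, fewer cells of a type and less RNA per cell cannot be told apart.

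Car3 was among the most abundant mRNAs of the spiny mouse cultures, which also carried skeletal muscle markers, and near or below the floor in most mouse libraries. At 24 h, untreated spiny mouse cultures had 10580, 6851, 11700 and 12760 CPM, which ranked 1 to 5 among all 19818 genes by CPM. At 10 Gy they had 11760, 7099, 12630 and 14120 CPM, and at 20 Gy 11060, 7260, 12570 and 14550 CPM. Replicate 2 was the lowest in each group, and the 3 groups overlapped. In C56BL6 mice all 12 libraries of 24 h had 0 Car3 counts, and in wild mice the only counts at 24 h were 1 in each of 2 libraries at 10 Gy, up to 0.0331 CPM. The lowest spiny mouse library at 24 h stood at 6851 CPM beside a mouse maximum of 0.0331 CPM.

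At 12 d the untreated spiny mouse cultures had 2251, 1648, 2558 and 2338 CPM of Car3, ranks 27 to 52. At 10 Gy they had 6095, 2584, 6562 and 4986 CPM, and at 20 Gy 6253, 2305, 6338 and 6503 CPM. The untreated passaged cultures had 11730, 7679, 11880 and 12140 CPM, ranks 2 to 5. Every passaged library was above every irradiated and every unpassaged untreated library, and replicate 2 was again the lowest of each group. The fitted log2 differences from untreated were 1.27 ± 0.31 (SE, n = 4) at 20 Gy, 1.19 ± 0.26 at 10 Gy and 2.28 ± 0.17 in passaged cultures, given as description because the choice of Car3 used its 12 d counts. Just as descriptively, 20 Gy and 10 Gy differed by 0.07 ± 0.37, with 2 of 4 pairs higher at 20 Gy.

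In C56BL6 mice the 12 d pattern of Car3 ran the other way, at far lower levels, and in wild mice it did so only in the libraries labelled replicates 1 and 4. Untreated C56BL6 cultures had 2.26, 8.45, 19.6 and 8.16 CPM. The 10 Gy libraries had 0.0750, 0.0661, 0.638 and 0.189 CPM, the 20 Gy libraries 0, 0.0850, 0.147 and 0.461 CPM, and of the passaged libraries only replicate 3 had any, 0.0739 CPM. Untreated wild mouse cultures had 5.36 and 5.11 CPM in the libraries labelled replicates 1 and 4 and 0 in replicates 2 and 3. Their 10 Gy libraries reached 0.481 CPM, their 20 Gy libraries 0.420 CPM, and all 4 passaged libraries were at 0. Every 10 Gy library held Car3 counts, also those of replicates 2 and 3, which had none when untreated. The numbers 1 and 4 are those that shared their present and absent genes at 12 d. The highest mouse library at 12 d, 19.6 CPM, was below the lowest spiny mouse library, 1648 CPM, so the opposite directions in the species were seen at levels that did not overlap.

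**Figure D1:**
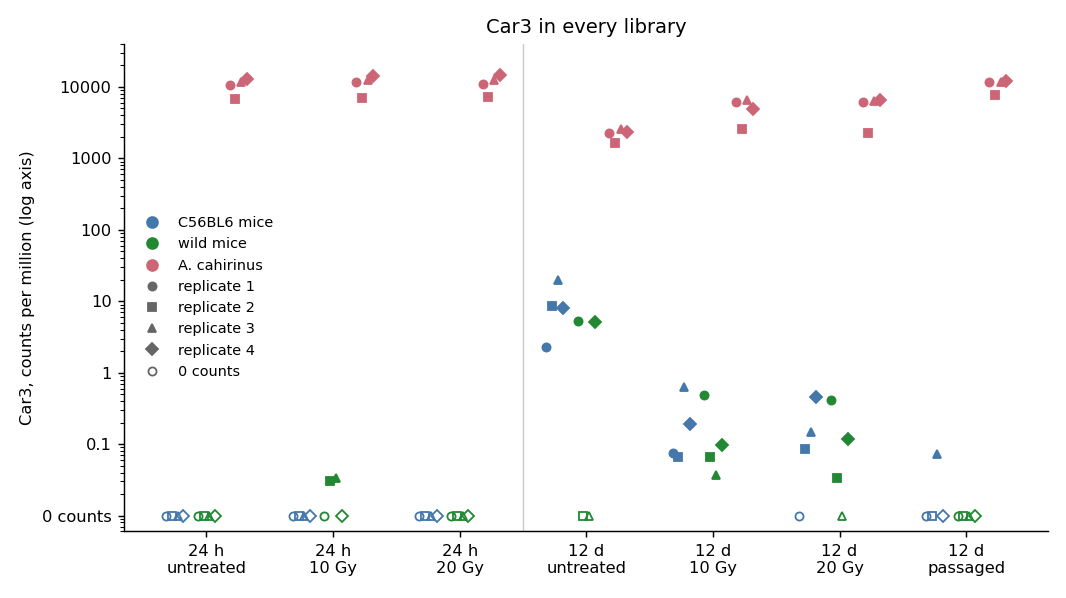
Car3 counts per M (log axis) in each of the 84 libraries, by population, time and treatment; open symbols are libraries with 0 counts. Spiny mouse libraries lie between 1648 and 14550 CPM, and the highest mouse library is at 19.6 CPM.

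The comparisons of Car3 that its choice did not use were those at 24 h, although the same animals also gave the 12 d cultures. At 24 h the spiny mouse changes were 0.14 ± 0.22 (log2, SE, edgeR adjusted p = 0.807) at 20 Gy and 0.15 ± 0.22 (adjusted p = 0.795) at 10 Gy, higher in 4 of 4 pairs in both. With the animal as a block the 10 Gy change was 0.15 ± 0.05 (edgeR adjusted p = 0.046), while that at 20 Gy had adjusted p = 0.0567. As description, the 10 Gy cultures at 12 d were lower than passaged ones, by a log2 change of -1.10 ± 0.26, with no overlap and 0 of 4 pairs higher. That change was -1.16 without replicate 1, -1.01 without replicate 2, -1.20 without replicate 3 and -1.04 without replicate 4.

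Markers of other cell types moved beside Car3 in part. In spiny mice at 12 d the muscle marker sum was 6741, 2996, 6920 and 5551 CPM in untreated, 9648, 2878, 8526 and 8685 CPM at 10 Gy, 10980, 1892, 11820 and 11490 CPM at 20 Gy, and 4251, 1957, 4206 and 3745 CPM in passaged cultures. Passaged cultures thus had the highest Car3 and muscle sums below those of the untreated cultures in each replicate number. Single markers did not all follow the sum. Myod1 was at 132.7, 64.14, 138.5 and 98.32 CPM in untreated and 185.1, 71.69, 172.9 and 169.1 CPM in passaged cultures, higher as Car3 was. The medians of Myog, Pax7, Des, Acta1 and Mb were lower in passaged than in untreated cultures. Across animals replicate 2 was lowest in both. At 24 h the sum was 3151, 1262, 3145 and 2525 CPM in untreated spiny mouse cultures, where Car3 was near its highest. Wild mouse replicate 1 at 24 h had muscle sums of 1276 to 1984 CPM with 0 Car3 counts. Those sums held Des at 695.8 to 1204 CPM and Acta1 at 434.8 to 773.9 CPM, with Myog, Myod1, Pax7 and Mb at most 0.092 CPM. Untreated spiny mouse replicate 1 at 24 h had 438.3 CPM of Myog, 157.4 of Myod1, 47.86 of Pax7 and 245.6 of Mb. The part of muscle-type cells in the Car3 values was not tested.

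**Figure D2:**
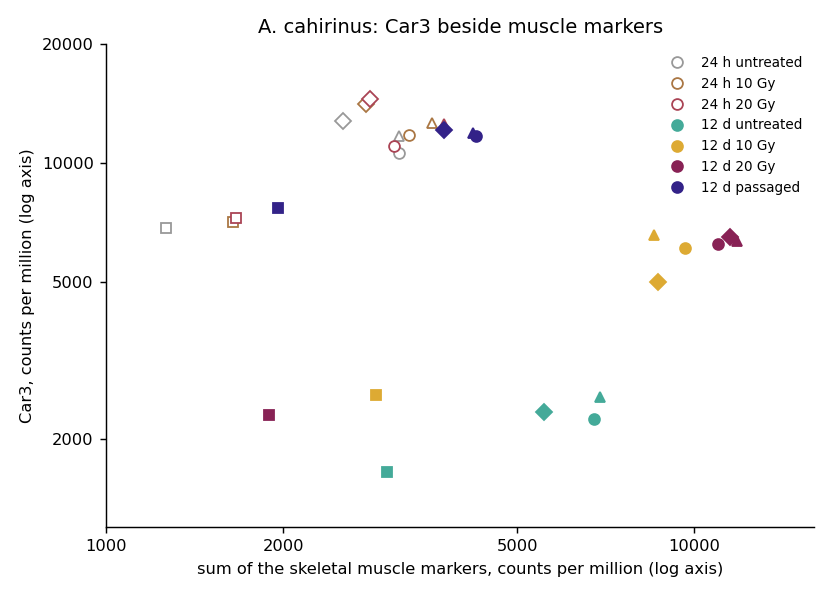
Car3 (CPM) against the summed skeletal muscle markers (CPM) in the 28 spiny mouse libraries; colour gives treatment, marker shape the replicate number, and open symbols 24 h. Passaged libraries combine Car3 of 7679 to 12140 CPM with muscle sums of 1957 to 4251 CPM, and 20 Gy libraries Car3 of 2305 to 6503 CPM with sums of 1892 to 11820 CPM.

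In mice, 2 of the 11 listed adipocyte markers, named after their values were seen, were low where Car3 was low. Adipoq, the hormone adiponectin, was 3.24 to 14.3 CPM in untreated C56BL6 cultures at 12 d, 0.0750 to 1.18 CPM at 10 Gy, 0.170 to 0.732 CPM at 20 Gy and at most 0.0287 CPM in passaged cultures. Cfd, the fat cell protease adipsin, was 7.82 to 23.7 CPM in untreated cultures, 0.150 to 1.65 CPM at 10 Gy and 0.277 to 1.03 CPM at 20 Gy. The sum of all 11 adipocyte markers moved with Car3 in part. It was at 43.59 to 137.6 CPM in untreated, 33.32 to 58.3 CPM at 10 Gy, 33.3 to 52.97 CPM at 20 Gy and 50.04 to 79.56 CPM in passaged cultures. In replicates 2, 3 and 4 the sum was highest in untreated cultures, at 107.1, 137.6 and 91.52 CPM. In replicate 1 it was highest in the passaged culture, at 79.56 CPM against 43.59 CPM untreated. In spiny mice Adipoq was at most 0.231 CPM and Cfd was at 0 except for 0.0291 CPM in 1 library. The part of fat-type cells in the mouse Car3 values was not tested.

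At 24 h few carbonic anhydrases passed the threshold in the fit without a block. At 20 Gy, 2 of the 8 members past the expression filter in spiny mice passed the threshold, Car5b and Car11, both higher, where 3.59% of all tested genes passed. In C56BL6 mice none of 7 passed beside 0.0895% of genes, and in wild mice none of 6 beside 0%. At unadjusted p under 0.05 edgeR gave 0 members in C56BL6 mice and 2 in wild mice (Car5b and Car9), and DESeq2 called 0 in both. At 10 Gy, 1 of 8 members rose in spiny mice, Car5b, beside 3.73% of genes, none of 7 in C56BL6 mice beside 0.007%, and none of 6 in wild mice beside 0%. There edgeR gave 1 member at unadjusted p under 0.05 in C56BL6 mice (Car9) and 0 in wild mice, with 0 called by DESeq2 in both. Between 20 and 10 Gy no member passed in any population, where 0% of genes passed in C56BL6, 0% in wild and 0% in spiny mice, and edgeR at unadjusted p under 0.05 and DESeq2 both gave 0 members.

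With the animal as a block the 24 h counts grew, as did those of all genes. At 20 Gy the blocked edgeR fit called Car5b and Car8 higher in C56BL6 mice (17.6% of all genes), Car5b, Car9 and Car13 higher in wild mice (12.5%), and Car5b, Car11 and Car12 higher in spiny mice (24.1%). At 10 Gy it called Car8 higher in C56BL6 mice (11.5%), none in wild mice (0%), and Car3, Car5b, Car11 and Car12 higher and Car2 lower in spiny mice (27.6%). Car5b was thus called higher at 20 Gy in all 3 populations with the block. In a blocked fit without replicate 1, chosen after seeing the data, the 3 wild mouse calls held, at 0.99 ± 0.15 for Car5b (log2, SE, edgeR adjusted p = 0.000878), 1.30 for Car9 (adjusted p = 0.00776) and 0.46 for Car13 (adjusted p = 0.0181).

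At 12 d the counts are over the 9 members other than Car3, except where 10 Gy and passaged cultures are compared and Car3 is included as description. At 20 Gy, 3 of 7 members past the filter fell in spiny mice (Car9, Car11 and Car12) beside 31.8% of all genes called, and 1 of 7 rose in C56BL6 mice (Car8) beside 26.5%. In wild mice none of 6 passed beside 0.0694% of genes, with 1 member at unadjusted p under 0.05 in edgeR (Car11) and 0 by DESeq2. At 10 Gy, 1 of 7 rose in C56BL6 mice (Car8) beside 20.9%, none of 7 in wild mice beside 0.264%, and none of 7 in spiny mice beside 2.87%. In the last 2 cases edgeR gave 0 members at unadjusted p under 0.05 and DESeq2 called 0. Between 20 and 10 Gy no member passed, with 0% of genes called in C56BL6, 0% in wild and 0.457% in spiny mice. In the mice edgeR gave 0 at unadjusted p under 0.05 and DESeq2 called 0, while in spiny mice edgeR gave 3 (Car2, Car9 and Car12) and DESeq2 called Car9 and Car12 lower.

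The block widened these counts too. At 20 Gy it called Car6, Car8 and Car13 higher and Car11 lower in C56BL6 mice (47.5% of all genes), none in wild mice (15.4%), and Car2, Car9, Car11 and Car12 lower in spiny mice (49.2%). At 10 Gy it called Car8 and Car13 higher and Car11 lower in C56BL6 mice (38.8%), none in wild mice (12.7%), and Car9 and Car12 lower in spiny mice (27.5%). Between 20 and 10 Gy it called none in C56BL6 mice (0.297%) or wild mice (0.257%), and Car2, Car9 and Car12 lower at 20 Gy in spiny mice (17.9%). Against untreated cultures, the shares of members called in C56BL6 and spiny mice were near these background shares, so the counts say nothing particular of the family.

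Passage without irradiation gave more member calls than 20 Gy against untreated in the unblocked fit. The share of all genes called was also higher with passage in both mouse populations, and lower in spiny mice. With the block the order of member calls turned in C56BL6 mice, to 3 with passage (60.1% of all genes) and 4 at 20 Gy. Those with passage were Car8 higher and Car5b and Car11 lower. In spiny mice the block called 6 with passage (49.5%) and 4 at 20 Gy. The 6 were Car2, Car5b, Car9 and Car13 higher and Car11 and Car12 lower. Passaged against untreated cultures gave calls in 3 of 7 members past the filter in C56BL6 mice (Car8 higher, Car5b and Car11 lower; 49.6% of all genes), 1 of 6 in wild mice (Car11 lower; 10.7%) and 4 of 7 in spiny mice (Car5b and Car13 higher, Car11 and Car12 lower; 25.8%). Irradiated cultures were then set against the passaged ones. At 20 Gy, 2 of 7 members were higher in C56BL6 mice (Car5b and Car11; 41.6%), 1 of 7 in wild mice (Car11; 10.5%), and 5 of 7 were lower in spiny mice (Car2, Car8, Car9, Car12 and Car13; 42.5%). At 10 Gy, 2 of 7 were higher in C56BL6 mice (Car5b and Car11; 41.6%), 1 of 7 in wild mice (Car11; 8.81%), and 3 of 8 were lower in spiny mice (Car2, Car3 and Car13; 20.2%). Of these, Car3 is description only, since its choice used its 12 d counts. With the block the wild mouse calls became Car13 higher and Car11 lower with passage (31.9%), Car5b and Car11 higher and Car6 and Car12 lower at 20 Gy against passaged (38%), and Car11 higher and Car6 and Car12 lower at 10 Gy against passaged (35.1%). Without replicate 1 the blocked fit ended 2 of these 9 wild mouse calls, Car13 with passage (0.74, edgeR adjusted p = 0.122) and Car5b at 20 Gy against passaged (0.51, adjusted p = 0.126). The other 7 held, with Car6 at -1.83 (adjusted p = 0.00599) and Car12 at -1.75 (adjusted p = 0.00711) at 20 Gy, Car6 at -1.42 (adjusted p = 0.0148) and Car12 at -1.11 (adjusted p = 0.0134) at 10 Gy, and Car11 at -1.81 with passage (adjusted p = 0.0227). These comparisons share the untreated or the passaged libraries, so their calls are not independent of each other.

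**Figure D3:**
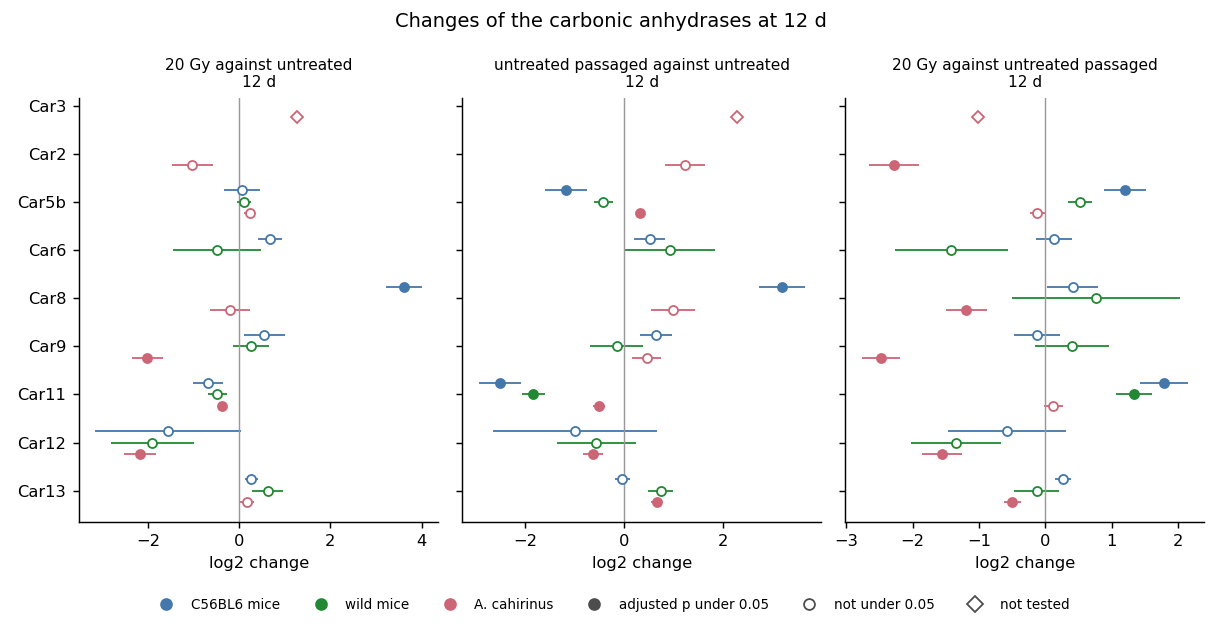
Log2 change ± SE of each carbonic anhydrase at 12 d in 3 comparisons, by population; filled symbols had an edgeR adjusted p under 0.05, and Car3 (diamonds, spiny mouse only) was not tested. Car9 and Car12 of spiny mice lie furthest below 0 at 20 Gy, at -2.01 and -2.18, and Car8 of C56BL6 mice furthest above, at 3.62.

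Among the cytosolic enzymes, Car2, a fast and widely expressed carbonic anhydrase, was a spiny mouse transcript in these cultures. Untreated spiny mouse cultures had 17.9, 12.7, 16.6 and 27.5 CPM at 24 h. At 12 d they had 3.30, 2.92, 3.52 and 9.004 CPM untreated, 4.09, 3.21, 4.47 and 7.37 CPM at 10 Gy, 1.61, 2.11, 1.56 and 3.93 CPM at 20 Gy, and 12.6, 6.31, 9.81 and 16.4 CPM when passaged. Replicate 4 was highest in all 7 groups. Both irradiated groups were below passaged cultures: Car2 fell by 2.28 ± 0.38 (log2, SE, edgeR adjusted p = 0.0022) at 20 Gy and by 1.22 ± 0.32 (adjusted p = 0.0318) at 10 Gy. The second call ended without replicate 1 (adjusted p = 0.21) or replicate 3 (adjusted p = 0.129).

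The other Car2 changes described here in spiny mice did not pass in the unblocked edgeR fit. They passed with the animal as a block, and DESeq2 called that with passage. Passaged against untreated cultures differed by 1.23 ± 0.41 (edgeR adjusted p = 0.0579, with the block 1.30 and adjusted p = 0.000606). At 20 Gy against untreated the change was -1.03 ± 0.45 (adjusted p = 0.116, with the block -0.98 and adjusted p = 0.0049), and against 10 Gy it was -1.05 (adjusted p = 0.245, with the block -1.09 and adjusted p = 0.00927). At 24 h and 10 Gy it was -0.41 (adjusted p = 0.608, with the block -0.45 and adjusted p = 0.00195). C56BL6 libraries had at most 0.0943 CPM of Car2, and wild mouse libraries at most 1.17 CPM, in an untreated culture at 12 d.

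Car13, a cytosolic enzyme found in many tissues, was well expressed in all 3 populations. Spiny mouse cultures had 37.9 to 45.6 CPM at 24 h. At 12 d they had 19.9, 24.6, 24.0 and 18.4 CPM untreated, 24.9, 27.3, 26.8 and 20.3 CPM at 10 Gy, 24.6, 29.3, 22.6 and 21.96 CPM at 20 Gy, and 36.2, 37.1, 32.6 and 34.1 CPM when passaged. The passaged group lay above the 3 others without overlap. Car13 rose by 0.67 ± 0.12 with passage (log2, SE, edgeR adjusted p = 0.00599), a call that ended without replicate 1 (0.61, adjusted p = 0.0688). Against passaged cultures it fell by 0.50 ± 0.13 at 20 Gy (adjusted p = 0.0142) and by 0.48 ± 0.13 at 10 Gy (adjusted p = 0.0343). The first of these ended without replicate 1 (adjusted p = 0.118), 3 (0.0683) or 4 (0.0691), and the second without replicate 1 (0.211), 3 (0.107) or 4 (0.0994).

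In mice Car13 was at similar levels. Untreated C56BL6 cultures at 12 d had 23.8, 23.2, 16.6 and 17.2 CPM, and 20 Gy cultures 29.6, 27.3, 23.8 and 24.9 CPM. The change was 0.27 ± 0.14 (edgeR adjusted p = 0.19, with the block 0.28 and adjusted p = 0.0218), and at 10 Gy it was 0.29 (adjusted p = 0.209, with the block adjusted p = 0.0356). Wild mouse libraries ran from 9.16 to 40.8 CPM over both times. There passage gave 0.74 ± 0.25 (adjusted p = 0.093, with the block adjusted p = 0.0365).

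Car5b, the mitochondrial member, moved at 24 h in spiny mice. Untreated cultures had 24.2, 20.3, 22.8 and 22.9 CPM, 10 Gy cultures 33.1, 24.95, 32.7 and 31.1 CPM, and 20 Gy cultures 33.7, 25.9, 33.03 and 35.9 CPM. Every irradiated library was above every untreated one. Car5b rose by 0.46 ± 0.09 at 10 Gy (log2, SE, edgeR adjusted p = 0.0217) and by 0.53 ± 0.10 at 20 Gy (adjusted p = 0.0199). The 10 Gy call ended without replicate 1 (adjusted p = 0.165), 3 (0.272) or 4 (0.152), and the 20 Gy call without replicate 1 (0.14), 3 (0.243) or 4 (0.15). In wild mice at 24 h, untreated cultures had 3.77, 7.47, 4.96 and 6.34 CPM and 20 Gy cultures 4.03, 12.9, 12.9 and 11.9 CPM, a change of 0.85 ± 0.36 (adjusted p = 0.842, with the block adjusted p = 0.0142). In C56BL6 mice it was 0.35 ± 0.29 (adjusted p = 0.779, with the block adjusted p = 0.0358).

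At 12 d passage moved Car5b in opposite directions in C56BL6 and spiny mice. C56BL6 cultures had 3.78, 14.9, 11.4 and 9.56 CPM untreated, 5.63, 15.4, 10.6 and 10.9 CPM at 10 Gy, 7.21, 14.2, 10.2 and 12.9 CPM at 20 Gy, and 2.32, 4.91, 4.84 and 5.56 CPM when passaged. Replicate 1 was the lowest of each group. Car5b fell by 1.17 ± 0.43 with passage (edgeR adjusted p = 0.0498), and it was higher than in passaged cultures by 1.20 ± 0.31 at 20 Gy (adjusted p = 0.016) and by 1.12 ± 0.36 at 10 Gy (adjusted p = 0.0336). All 3 calls ended without replicate 2 (adjusted p = 0.18, 0.0803 and 0.135), replicate 3 (0.169, 0.0702 and 0.116) or replicate 4 (0.113, 0.0546 and 0.0928). Spiny mouse cultures had 14.8, 16.9, 17.5 and 14.8 CPM untreated and 21.8, 18.9, 20.3 and 20.7 CPM when passaged, a rise of 0.33 ± 0.09 (adjusted p = 0.0272). That call ended without replicate 1 (adjusted p = 0.187), 3 (0.0981) or 4 (0.105).

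Car6, the secreted member known from saliva, was a mouse transcript here. It was at 0 in 27 of 28 spiny mouse libraries, with 1 count in the other. C56BL6 libraries had 2.29 to 9.35 CPM. At 12 d they had 5.09, 5.94, 4.33 and 2.80 CPM untreated and 8.75, 9.35, 7.71 and 5.61 CPM at 20 Gy, higher in 4 of 4 pairs. That change was 0.68 ± 0.26 (edgeR adjusted p = 0.0893, with the block adjusted p = 0.00398). Wild mouse libraries ran from 0.336 to 15.8 CPM. They had 8.04, 0.632, 1.29 and 8.73 CPM untreated at 12 d and 8.204, 1.67, 15.8 and 10.1 CPM when passaged. Against passaged cultures the change was -1.42 at 20 Gy (adjusted p = 0.332, with the block adjusted p = 0.00713) and -1.31 at 10 Gy (adjusted p = 0.33, with the block adjusted p = 0.00595).

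Among the membrane enzymes, Car9 was the second most abundant member in spiny mice per length of transcript, after Car3. In reads per kb per M, untreated spiny mouse cultures at 12 d had 1450 ± 256.7 (SD, n = 4) of Car3, 93.9 ± 33.7 of Car9 and 15.1 ± 0.374 of Car11, the next in order. In the same unit untreated C56BL6 cultures had Car13 first, at 8.78 ± 1.65, followed by Car11 at 5.44 ± 2.27, which overlap within their SD. Car9 stood at 0.648 ± 0.288 there.

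In CPM, untreated spiny mouse cultures had 262.5, 146.5, 260.3 and 292.5 of Car9 at 24 h, and 203.3, 91.2, 247.7 and 207.7 at 12 d. At 12 d the 10 Gy cultures had 115.9, 46.9, 175.9 and 152.3 CPM, the 20 Gy cultures 48.4, 25.95, 49.2 and 63.01 CPM, and the passaged cultures 287, 156.4, 294.7 and 307.3 CPM. Every 20 Gy library was below every untreated and every passaged one, and replicate 2 was the lowest of each group. Car9 fell by 2.01 ± 0.34 at 20 Gy against untreated (log2, SE, edgeR adjusted p = 0.0033; 0.0000505 to 0.0365 with any 1 replicate left out), and by 2.48 ± 0.29 against passaged cultures (adjusted p = 0.000462).

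The remaining Car9 comparisons in spiny mice at 12 d did not pass in the unblocked edgeR fit. They passed with the animal as a block, and DESeq2 called 20 against 10 Gy and 10 Gy against passaged cultures. At 10 Gy the change from untreated was -0.62 ± 0.39 (edgeR adjusted p = 0.397, with the block -0.67 and adjusted p = 0.00261) and from passaged cultures -1.09 (adjusted p = 0.0653, with the block -1.18 and adjusted p = 0.000427). From 10 to 20 Gy it was -1.40 ± 0.39 (adjusted p = 0.168, with the block -1.31 and adjusted p = 0.00129), and with passage 0.46 (adjusted p = 0.281, with the block 0.50 and adjusted p = 0.00124). At 24 h the 20 Gy cultures had 224.5, 122.6, 232.6 and 275.4 CPM, overlapping the untreated ones. In the spiny mouse annotation 149 exonic bases of Car9, 7.465% of them, are shared with Arhgef39 and Tpm2. Reads there were not assigned to any of these genes. Tpm2, a tropomyosin of muscle, ran from 1098 to 3988 CPM.

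Mouse Car9 was low throughout, at 0.849 to 4.44 CPM in C56BL6 and 0.342 to 3.82 CPM in wild mice. The lowest spiny mouse library of 12 d, 25.95 CPM, was above all of these. Of its exonic bases in the mouse annotation, 660 (28.65%) are shared with the predicted gene Gm12454, so mouse Car9 counts leave out reads from that stretch. In wild mice at 24 h the 20 Gy libraries were all above the untreated ones, a change of 0.92 (edgeR adjusted p = 0.823, with the block 0.99 and adjusted p = 0.0355).

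Car12 of spiny mice fell together with Car9 at 20 Gy. At 12 d it was at 32.1, 31.95, 46.3 and 57.2 CPM in untreated cultures, 18.3, 12.4, 45.4 and 43.8 CPM at 10 Gy, 5.46, 5.80, 11.7 and 14.3 CPM at 20 Gy, and 27.3, 21.5, 28.7 and 32.8 CPM in passaged cultures. Every 20 Gy library was below every untreated and every passaged one. The change was -2.18 ± 0.35 against untreated (log2, SE, edgeR adjusted p = 0.00259, at most 0.029 with any 1 replicate left out) and -1.56 ± 0.30 against passaged cultures (adjusted p = 0.00443). Passage itself gave -0.63 ± 0.20 (adjusted p = 0.0486), a call that ended without replicate 1 (adjusted p = 0.107), 3 (0.197) or 4 (0.1). At 10 Gy against untreated the change was -0.50 (adjusted p = 0.506, with the block -0.63 and adjusted p = 0.0383), and from 10 to 20 Gy -1.69 (adjusted p = 0.172, with the block -1.62 and adjusted p = 0.000394).

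At 24 h Car12 of spiny mice leaned the other way. It was at 26.3, 23.5, 31.04 and 41.1 CPM in untreated, 29.4, 25.1, 40.95 and 53.9 CPM at 10 Gy and 28.7, 25.1, 39.9 and 54.2 CPM at 20 Gy, with overlap. With the animal as a block the changes were 0.30 at 10 Gy (edgeR adjusted p = 0.00498) and 0.28 at 20 Gy (adjusted p = 0.0212), and both were called higher.

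**Figure D4:**
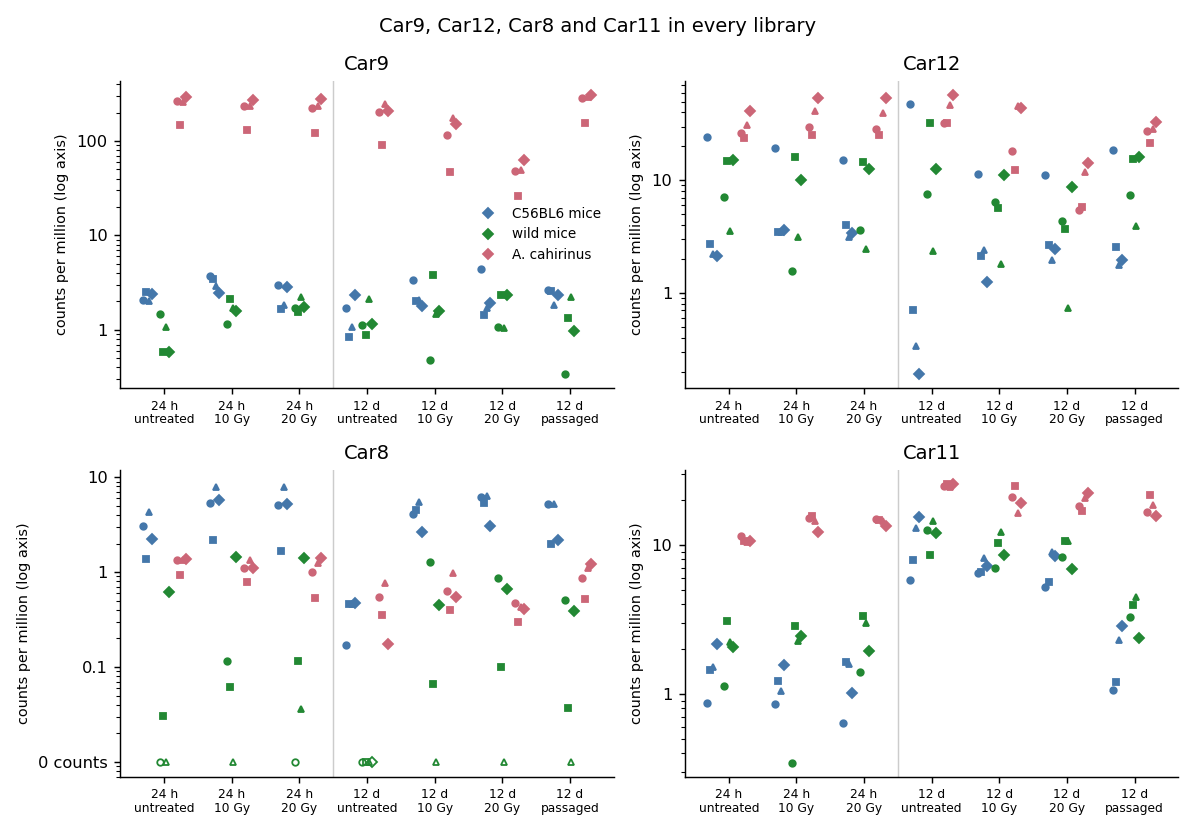
Counts per M (log axis) of Car9, Car12, Car8 and Car11 in every library, by population, time and treatment. Spiny mouse Car9 and Car12 at 20 Gy and 12 d (25.95 to 63.01 and 5.46 to 14.3 CPM) lie below the untreated and passaged 12 d groups of spiny mice.

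In C56BL6 mice 1 animal decided Car12. Replicate 1 had 47.1 CPM untreated, 11.5 CPM at 10 Gy, 11.03 CPM at 20 Gy and 18.5 CPM passaged at 12 d. The 3 other replicates had 0.191 to 0.707 CPM untreated, 1.26 to 2.39 CPM at 10 Gy, 1.96 to 2.66 CPM at 20 Gy and 1.77 to 2.55 CPM passaged. Over all 4 animals the changes were -1.55 ± 1.60 at 20 Gy (edgeR adjusted p = 0.503), -1.62 ± 1.64 at 10 Gy (adjusted p = 0.522) and -0.99 ± 1.66 with passage (adjusted p = 0.642). Without replicate 1 they were 2.42 ± 0.42 (adjusted p = 0.00476), 2.10 (adjusted p = 0.0108) and 2.37 (adjusted p = 0.00301), so the direction turned. With the animal as a block they were 0.78 (edgeR adjusted p = 0.538), 0.47 (adjusted p = 0.681) and 0.97 (adjusted p = 0.32). Replicate 1 was also the animal with high keratinocyte markers, whose part in its Car12 was not tested.

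**Figure D5:**
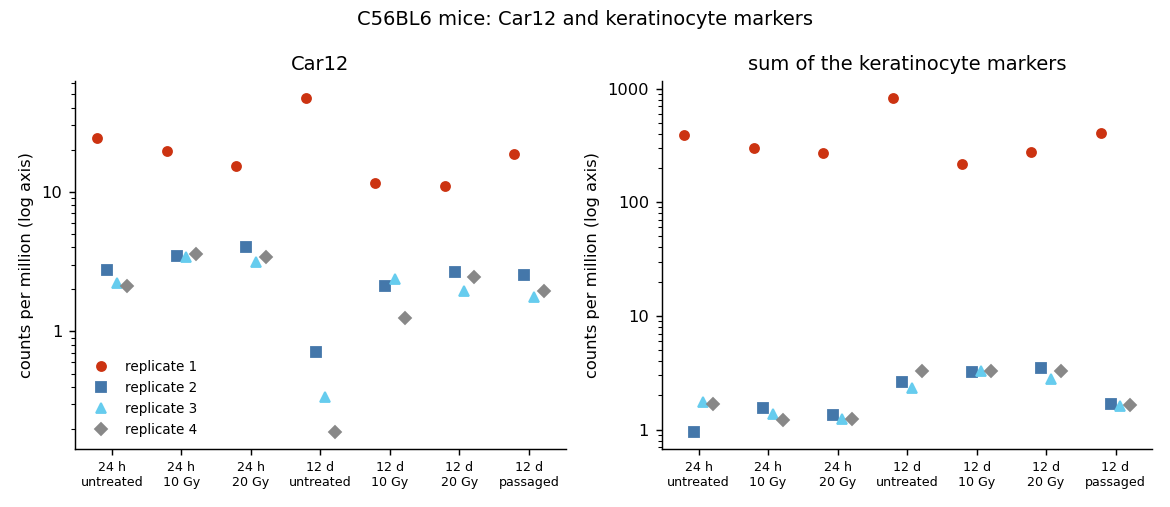
Car12 (CPM, log axis) and summed keratinocyte markers (CPM, log axis) in the C56BL6 libraries, by replicate. Replicate 1 has Car12 of 11.03 to 47.1 CPM and keratinocyte sums of 215.6 to 829.8 CPM, above replicates 2 to 4 in every group.

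Wild mouse Car12 was at 7.56, 32.2, 2.35 and 12.5 CPM in untreated cultures at 12 d and 4.35, 3.70, 0.727 and 8.68 CPM at 20 Gy, lower in 4 of 4 pairs. The change of -1.90 did not pass (edgeR adjusted p = 0.412). Against passaged cultures, at 7.39, 15.6, 3.901 and 16.1 CPM, the change was -1.35 at 20 Gy (adjusted p = 0.251, with the block -1.48 and adjusted p = 0.00491) and -0.85 at 10 Gy (adjusted p = 0.406, with the block adjusted p = 0.0174).

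Car4, which is anchored to the membrane by a lipid, passed the expression filter in no comparison. Mouse libraries held 0 to 6 counts of it. In spiny mice the untreated 12 d cultures held 0, 3, 2 and 0 counts, the 10 Gy cultures 3, 25, 12 and 3, the 20 Gy cultures 6, 26, 19 and 9, and the passaged cultures 0. In CPM the 20 Gy cultures had 0.189, 0.782, 0.539 and 0.262.

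Of the 2 members that lack catalysis, Car8, a partner of the inositol trisphosphate receptor, was the member with the largest called change of C56BL6 mice. At 12 d it was at 0.169, 0.460, 0.464 and 0.477 CPM in untreated C56BL6 cultures, 4.05, 4.46, 5.51 and 2.67 CPM at 10 Gy, 6.19, 5.41, 6.36 and 3.09 CPM at 20 Gy, and 5.27, 1.98, 5.21 and 2.16 CPM in passaged cultures. All 12 libraries of the other groups were above all 4 untreated ones. Car8 rose by 3.62 ± 0.39 at 20 Gy (log2, SE, edgeR adjusted p = 0.00124), by 3.27 ± 0.37 at 10 Gy (adjusted p = 0.00239) and by 3.19 ± 0.47 with passage (adjusted p = 0.00122), and no single replicate ended these calls.

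At 24 h the untreated C56BL6 cultures had 3.09, 1.38, 4.31 and 2.26 CPM of Car8, the 10 Gy cultures 5.41, 2.17, 7.95 and 5.77 CPM, and the 20 Gy cultures 5.11, 1.66, 7.94 and 5.22 CPM. The changes were 0.94 ± 0.43 at 10 Gy (edgeR adjusted p = 0.657, with the block 0.93 ± 0.14 and adjusted p = 0.00209) and 0.83 at 20 Gy (adjusted p = 0.644, with the block 0.80 ± 0.15 and adjusted p = 0.00213). Wild mouse cultures had 0 counts of Car8 in all 4 untreated libraries at 12 d, and 0.877, 0.101, 0 and 0.656 CPM at 20 Gy. Spiny mouse cultures at 12 d had 0.549, 0.351, 0.775 and 0.174 CPM untreated, 0.474, 0.301, 0.425 and 0.407 CPM at 20 Gy, and 0.861, 0.520, 1.09 and 1.23 CPM when passaged. There Car8 was lower at 20 Gy than in passaged cultures, by a log2 change of -1.19 ± 0.31 (adjusted p = 0.0166). That call ended without replicate 1 (adjusted p = 0.0658), 3 (0.101) or 4 (0.0978).

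Car11, known from brain and secreted, was lower with passage in all 3 populations. At 12 d the C56BL6 cultures had 5.77, 7.96, 12.9 and 15.3 CPM untreated, 6.45, 6.61, 8.17 and 7.17 CPM at 10 Gy, 5.24, 5.64, 8.91 and 8.40 CPM at 20 Gy, and 1.07, 1.21, 2.29 and 2.86 CPM when passaged. Every passaged library was below every other. Car11 fell by 2.51 ± 0.43 with passage (log2, SE, edgeR adjusted p = 0.0023), and it was higher than in passaged cultures by 1.79 ± 0.36 at 20 Gy (adjusted p = 0.00509) and by 1.79 ± 0.32 at 10 Gy (adjusted p = 0.00309). No single replicate ended these calls. Against untreated cultures it changed by -0.69 at 20 Gy (adjusted p = 0.156, with the block -0.63 and adjusted p = 0.00955) and -0.69 at 10 Gy (adjusted p = 0.13, with the block -0.60 and adjusted p = 0.0437).

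Wild mouse Car11 moved in the same directions. Its 12 d levels were 12.6, 8.60, 14.5 and 12.0 CPM untreated, 6.94, 10.3, 12.1 and 8.59 CPM at 10 Gy, 8.28, 10.5, 10.5 and 6.86 CPM at 20 Gy, and 3.29, 3.92, 4.45 and 2.38 CPM when passaged. The passaged group overlapped none of the others. It fell by 1.83 ± 0.24 with passage (edgeR adjusted p = 0.0118), a call that ended without replicate 1 (-1.77, adjusted p = 0.162) or 4 (adjusted p = 0.0858). Against passaged cultures it was higher by 1.33 ± 0.27 at 20 Gy (adjusted p = 0.0223) and by 1.36 ± 0.29 at 10 Gy (adjusted p = 0.0266). These 2 calls ended without replicate 1 (adjusted p = 0.14 and 0.149), 2 (0.0961 and 0.0971) or 4 (0.0861 and 0.125).

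Spiny mouse Car11 rose at 24 h and fell at 12 d after 20 Gy. At 24 h it was at 11.4, 10.5, 10.4 and 10.6 CPM untreated, 15.04, 15.5, 14.4 and 12.2 CPM at 10 Gy and 14.8, 14.7, 14.4 and 13.4 CPM at 20 Gy, with no overlap between irradiated and untreated cultures. The 20 Gy change of 0.45 ± 0.09 passed (log2, SE, edgeR adjusted p = 0.0288), but ended without any 1 of replicates 1 to 4 (adjusted p = 0.159, 0.0585, 0.34 and 0.114). The 10 Gy change of 0.45 ± 0.11 had adjusted p = 0.0618, and 0.00173 with the block. At 12 d Car11 was at 24.8, 25.6, 24.4 and 25.7 CPM untreated, 18.3, 16.9, 20.6 and 22.4 CPM at 20 Gy, and 16.5, 21.7, 18.4 and 15.5 CPM when passaged. It fell by 0.37 ± 0.09 at 20 Gy (adjusted p = 0.0155) and by 0.50 ± 0.12 with passage (adjusted p = 0.0217). The first of these ended without replicate 1 (adjusted p = 0.105) or 3 (0.0755), the second without replicate 1 (0.132), 3 (0.105) or 4 (0.114).

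Differences between populations in these changes were tested as interactions on the 18109 symbols found once in each table. At 24 h no member passed, neither at 20 Gy for spiny against C56BL6 mice (2.09% of all genes), spiny against wild mice (0%) and wild against C56BL6 mice (0%), nor at 10 Gy (1.53%, 0% and 0%). At unadjusted p under 0.05 edgeR gave Car9 for spiny against wild mice at both doses, Car8 and Car11 for spiny against C56BL6 mice at 10 Gy, and 0 members otherwise, and DESeq2 called 0 in all 6. With the animals as a block, the spiny minus C56BL6 difference at 24 h and 20 Gy passed for Car8, at -1.03 ± 0.25 (edgeR adjusted p = 0.0106), and for Car11, at 0.79 ± 0.23 (adjusted p = 0.0251), beside 16.8% of all genes. Spiny minus wild passed there for Car9, at -1.11 (adjusted p = 0.00429), and Car12, at 0.69 (adjusted p = 0.0266), beside 7.25%. At 10 Gy the blocked fit called 4 members between spiny and C56BL6 mice (15.6%): Car5b and Car11 were more upward in spiny mice, at 0.39 and 0.79, and Car8 and Car9 more downward, at -1.12 and -0.59. It called none between spiny and wild mice at 10 Gy (0.148%), or between the mice at 20 Gy (0.647%) or 10 Gy (0%).

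At 12 d and 20 Gy, Car8 and Car9 changed less upward or more downward in spiny than in C56BL6 mice (18.8% of all genes), Car9 did so against wild mice (3.35%), and none differed between the mice (0%). The Car9 difference was -2.55 ± 0.56 against C56BL6 mice (edgeR adjusted p = 0.00724) and -2.26 ± 0.51 against wild mice (adjusted p = 0.0324). The first ended without replicate 3 (adjusted p = 0.0839) and the second without replicate 1 (0.259), 3 (0.0574) or 4 (0.226). The Car8 difference was -3.80 ± 0.59 (adjusted p = 0.000916), and no single replicate ended it. The block added Car12 against C56BL6 mice (38% of all genes), at -2.68 ± 0.94 (edgeR adjusted p = 0.0467) where the unblocked fit gave -0.64, and Car8 against wild mice (23.3%), whose fitted size is no bound since all untreated wild libraries were at 0. It called none between the mice (0.101%).

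At 10 Gy and 12 d the unblocked fit called Car8 alone, at -2.79 ± 0.61 between spiny and C56BL6 mice (edgeR adjusted p = 0.0168; 6% of all genes), a call that ended without replicate 1 (adjusted p = 0.0783), 2 (0.0745) or 3 (0.14). For spiny against wild mice (0.0726%) and wild against C56BL6 mice (0%) edgeR called 0, with Car8 alone at unadjusted p under 0.05 in the former, 0 in the latter, and 0 by DESeq2 in both. The block added Car9 against C56BL6 mice, at -1.18 ± 0.27 (edgeR adjusted p = 0.00999; 25.3% of all genes), and Car8 against wild mice (9.23%), again with untreated wild libraries at 0. It called none between the mice (0.328%).

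The response to passage differed between spiny and C56BL6 mice for 4 members expressed in both (27.7% of all genes). The difference, spiny minus C56BL6, was 2.01 ± 0.45 for Car11 (edgeR adjusted p = 0.0051), 1.49 ± 0.45 for Car5b (adjusted p = 0.0253), 0.69 ± 0.21 for Car13 (adjusted p = 0.0238) and -2.21 ± 0.67 for Car8 (adjusted p = 0.0262). Car11 fell in both, and by less in spiny mice. The Car11 call ended without replicate 3 (adjusted p = 0.0594). The Car5b call ended without replicate 2, 3 or 4, the Car13 call without replicate 1, 2 or 4, and the Car8 call without replicate 1, 2 or 3. Car2 had a fitted difference of 4.69 (edgeR adjusted p = 0.0348), which is not read as a difference: C56BL6 Car2 was at or under 3 counts in every library, so the gene passed the filter through spiny mice and its fitted size depends on the prior count.

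Against wild mice the passage response differed for Car11, by 1.33 ± 0.26 (edgeR adjusted p = 0.0159), and for Car5b, by 0.75 ± 0.19 (adjusted p = 0.0494), beside 3.46% of all genes. The Car11 call ended without replicate 1 (adjusted p = 0.251) or 4 (0.0855), and the Car5b call without replicate 1, 3 or 4. Between wild and C56BL6 mice no member passed (0.0131%), with Car13 at unadjusted p under 0.05 in edgeR and 0 calls by DESeq2. With the block the same members were called, beside 45.2% of all genes against C56BL6 mice and 23.8% against wild mice, where it added Car2 with wild libraries of at most 1.17 CPM, and none was called between the mice (4.02%).

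For 10 Gy against passaged cultures the spiny minus C56BL6 difference was -1.60 ± 0.38 for Car11 (edgeR adjusted p = 0.0106), -1.29 ± 0.39 for Car5b (adjusted p = 0.038) and -0.77 ± 0.19 for Car13 (adjusted p = 0.0143), beside 17.2% of all genes. The Car11 call ended without replicate 3 (adjusted p = 0.0954), the Car5b call without replicate 2, 3 or 4, and the Car13 call without replicate 1 or 4. The fit also gave -4.90 for Car2 and -4.59 for Car3, with C56BL6 libraries near the floor. Against wild mice it gave -6.47 for Car3 (2.88% of all genes called), with wild passaged libraries at 0, and no call in another member. These 3 values are description only: the genes passed the filter through spiny mice, the sizes depend on the prior count, and the difference of Car3 between species at 12 d is what its choice used. The block added Car9, at -0.99 ± 0.26 against C56BL6 mice (edgeR adjusted p = 0.0113; 40.2% of all genes) and -1.67 ± 0.39 against wild mice (adjusted p = 0.0114; 24.9%), and Car11 against wild mice, at -1.19 ± 0.18 (adjusted p = 0.00133). Against wild mice the block also added Car2, with wild libraries of at most 1.17 CPM. It called none between the mice (3.77%). Without the block wild and C56BL6 mice differed for none (0.00632%), with 0 members at unadjusted p under 0.05 in edgeR and 0 by DESeq2.

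Untreated wild and C56BL6 mouse cultures differed in no member, at 24 h (5.7% of all genes) or 12 d (2.93%). At 24 h edgeR gave Car8 and Car9 at unadjusted p under 0.05, at -4.02 ± 1.17 (adjusted p = 0.091) and -1.19 (adjusted p = 0.105), and DESeq2 called both lower in wild mice. At 12 d both tools gave 0.

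The other genes of the family and its pathway were followed as lists. Of 6 further carbonic anhydrases (Car1, Car5a, Car7, Car10, Car14 and Car15), 0 to 3 passed the filter in a comparison. In C56BL6 mice at 12 d Car14, a membrane enzyme, rose by 1.63 ± 0.48 at 20 Gy (log2, SE, edgeR adjusted p = 0.0383), from 0.165 ± 0.139 CPM (SD, n = 4) to 0.562 ± 0.0437 CPM. That call ended without replicate 2 (adjusted p = 0.143), 3 (0.19) or 4 (0.159). Car7, a cytosolic enzyme, was at 0.807 ± 0.302 CPM untreated, 1.63 ± 0.178 CPM at 20 Gy and 0.398 ± 0.184 CPM when passaged. Against passaged cultures Car7 was higher by 1.90 ± 0.34 (adjusted p = 0.00279) in C56BL6 and by 1.83 ± 0.30 (adjusted p = 0.0115) in wild mice at 20 Gy. The wild mouse call ended without replicate 1 (1.85, adjusted p = 0.0999), 2 (0.0521) or 4 (0.104), and the C56BL6 call held without any 1 replicate. No further carbonic anhydrase was called in spiny mice, where at most 1 passed the filter.

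Of 23 transporters of bicarbonate, protons and lactate, which move what these enzymes make, 1 of 12 past the filter rose and 2 fell in C56BL6 mice at 12 d and 20 Gy, where 26.5% of all genes were called. Slc4a8, a bicarbonate transporter, changed by 1.5 (edgeR adjusted p = 0.00605) and Slc16a4, of the monocarboxylate transporter family, by -1.48 (adjusted p = 0.0164). In spiny mice 2 of 16 rose and 1 fell, with Slc26a4 at 0.97 (adjusted p = 0.0297) and Slc4a2 at 0.62 (adjusted p = 0.00909), beside 31.8% of all genes. In wild mice 0 of 12 were called beside 0.0694%. With passage, 4 rose and 3 fell of 12 in C56BL6 mice (49.6% of all genes), 2 rose and 1 fell of 12 in wild mice (10.7%), and 3 rose and 1 fell of 16 in spiny mice (25.8%). At 24 h the unblocked edgeR fit called none at 20 Gy in any population.

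Other known hypoxia-inducible targets were set beside Car9 and Car12, 23 genes that all passed the filter. In spiny mice at 20 Gy and 12 d, 0 rose and 6 fell beside 31.8% of all genes called, and the list's median log2 change was -0.04 against 0.00 over all genes. The largest were Hif3a, an alpha subunit of the hypoxia-inducible factors, at -1.10 (edgeR adjusted p = 0.0107) and Ankrd37 at -0.89 (adjusted p = 0.006), each smaller than the changes of Car9 and Car12. In C56BL6 mice 2 rose and 6 fell beside 26.5% of all genes (median -0.27 against -0.01), with Ndrg1 at -1.21 (adjusted p = 0.00882) and Pfkfb4, a regulator of glycolysis, at 1.09 (adjusted p = 0.0405). In wild mice 0 were called beside 0.0694%, with a median of -0.41. With passage Ndrg1 of C56BL6 mice changed by -3.55 (adjusted p = 0.000161), and in spiny mice 3 of the 23 rose and 2 fell beside 25.8% of all genes. The block raised the counts at 20 Gy to 3 higher and 8 lower in spiny mice (49.2% of all genes) and 2 higher and 10 lower in C56BL6 mice (47.5%). At 24 h, where the unblocked fit called 0 of the 23 in any population, it gave 1 higher and 12 lower in C56BL6 mice (17.6% of all genes), 1 higher and 15 lower in wild mice (12.5%), and 4 higher and 1 lower in spiny mice (24.1%) at 20 Gy.

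The genes whose log2 CPM ran most like that of Car3 over the 16 libraries of 12 d differed by population. They were taken from genes with a mean of at least 1 CPM, by Pearson's r with a prior count of 2, and the libraries share animals and depth. In C56BL6 mice they were Cyp7b1 (r = 0.97), Vtn (0.96) and Dpep1 (0.96), with Zfp764 (0.96) in place of Vtn at a prior count of 0.5. Cyp7b1, an oxysterol hydroxylase, was at 15.4 ± 9.09 CPM (SD, n = 4) untreated, 1.89 ± 0.942 CPM at 20 Gy and 0.750 ± 0.338 CPM when passaged. In wild mice they were the fat cell genes Cfd (r = 0.95) and Adipoq (0.94), followed by Ngfr (0.90), the nerve growth factor receptor. Adipoq (r = 0.96) and Cfd (0.94) also ran with Car3 in C56BL6 mice, without being among the highest there, and Ngfr did not (0.04).

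In spiny mice they were Pspc1 (r = 0.98), a paraspeckle protein, Bcar1 (0.97), an adaptor at focal adhesions, and Cfap99 (0.95). Bcar1 was at 200.7 ± 16.2 CPM (SD, n = 4) untreated, 255.4 ± 38.9 CPM at 20 Gy and 334.5 ± 21.95 CPM when passaged, with an r of -0.82 to Car3 in C56BL6 mice and -0.42 in wild mice. Ranked by the lowest r of the 3 populations over 10582 symbols, Clec3b, which encodes tetranectin, led with 0.72, followed by Txnl4b (0.62), Dph7 (0.59), Rfxank (0.59) and Timm21 (0.58). With a prior count of 0.5 Clec3b led again at 0.72, followed by Dph7 (0.67), Txnl4b (0.63), Pqbp1 (0.59) and Cblb (0.58). Clec3b was at 36.8 ± 24.7 CPM untreated and 0.333 ± 0.289 CPM passaged in C56BL6 mice, and at 1.53 ± 0.715 CPM untreated and 6.26 ± 2.84 CPM passaged in spiny mice.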

How the data were processed

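Polyadenylated RNA of primary skin fibroblasts was sequenced in 84 libraries, with stranded mRNA libraries per the labels' protocols. The values are raw counts of reads per gene, deposited by the authors. Trim Galore, HISAT2 and featureCounts are named in the submitters' processing notes, and featureCounts 2.0.3 per the file headers. Mouse reads were counted on GRCm39 with Ensembl release 108 by gene identifier, and per the file headers spiny mouse reads on AcoCah2 by name of the gene. They record no option for strand, multiply mapped or overlapping reads. Counts were therefore made without strand, and reads in overlapping genes or in near-identical copies were not assigned. Gene lengths in base pairs, other values deposited by the authors beside the counts, were used only for reads per kb per M. Of 56980 mouse identifiers 56236 were matched to a symbol, and 0 count columns were left unused.

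Tests used edgeR 4.0.16 (R 4.3.3): filterByExpr, TMM scaling, the quasi-likelihood test, and Benjamini-Hochberg adjustment over all genes tested, with a threshold of 0.05. Fits held only the groups compared and no block, and the script was tested on simulated data. The replicate number names the same animal across groups in the library names. Same-numbered libraries deviated together, with a mean correlation across genes of 0.49 to 0.89 over 27 comparisons and at least 0.34 in every pair. Alternatives were RLE size factors, no expression filter, all groups in one fit, a block on the replicate number, DESeq2 1.42.0, and each replicate left out. Unless a block is named, replicates were left out of the fit without a block, where the spread between animals stays in the error. The prior count for Car3 likeness was 2 or 0.5. From each list at most 2 called genes with the largest change were named per comparison. Members, lists and tests were chosen with earlier results of these data known. Depths of 17.42 to 52.86 M counts limit low genes, and values near 3 counts carry little precision.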

Additional observations from a re-analysis of the deposited data

Results flagged for a closer look

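Among 143 groups of 4 libraries, 18 had 1 library far from the other 3, by Dixon's criterion on the gap relative to the group's range, which chance alone meets in about 1 of 20 groups. Car12 of C56BL6 mice did so in all 7 groups, with replicate 1 at 24.22, 19.52 and 15.25 CPM at 0, 10 and 20 Gy and 24 h, and at 47.1, 11.48, 11.03 and 18.5 CPM at 12 d untreated, at 10 Gy, at 20 Gy and passaged. In spiny mice replicate 2 was the low library for Car3 at 12 d, with 2305 CPM at 20 Gy and 7679 CPM when passaged, and for Car9 in passaged cultures, with 156.4 CPM. Replicate 4 was high for Car2 in untreated spiny mouse cultures at 12 d, with 9.004 CPM. At 24 h 1 spiny mouse library stood apart for Car8 untreated (0.9436 CPM, low), Car11 untreated (11.4 CPM, high) and Car13 at 10 Gy (37.92 CPM, low). In mice 1 library stood apart for Car5b in wild mice at 24 h and 20 Gy (4.03 CPM, low), Car13 in untreated C56BL6 mice at 24 h (26.31 CPM, high), and Car9 in C56BL6 mice at 12 d, with 3.377 CPM at 10 Gy and 4.435 CPM at 20 Gy, both high.

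The change differed between populations, by edgeR's interaction test, in 17 cases. Of these, 4 are not read as differences, those of Car2 and Car3, because mouse libraries were near the floor and the fitted sizes depend on the prior count. For 20 Gy at 12 d the spiny minus C56BL6 difference in log2 change was -3.80 for Car8 (adjusted p = 0.000916) and -2.55 for Car9 (adjusted p = 0.00724), and spiny minus wild was -2.26 for Car9 (adjusted p = 0.0324). For 10 Gy at 12 d it was -2.79 for Car8 against C56BL6 mice (edgeR adjusted p = 0.0168). For passage it was 4.69 for Car2, 1.49 for Car5b, -2.21 for Car8, 2.01 for Car11 and 0.69 for Car13 against C56BL6 mice, and 0.75 for Car5b and 1.33 for Car11 against wild mice. For 10 Gy against passaged cultures it was -4.90 for Car2, -4.59 for Car3, -1.29 for Car5b, -1.60 for Car11 and -0.77 for Car13 against C56BL6 mice, and -6.47 for Car3 against wild mice.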

How the results depend on the processing

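Counts of carbonic anhydrases called are sums over the populations, and those of 10 Gy against passaged cultures include Car3 as description. With a block on the replicate number, the count at 24 h rose from 2 to 8 at 20 Gy and from 1 to 6 at 10 Gy. At 12 d it rose from 4 to 8 at 20 Gy, from 1 to 5 at 10 Gy and from 0 to 3 for 20 against 10 Gy, and that of differences between populations from 17 to 34. The block ended none of the calls made without it, 10 of 12 wild mouse calls with the block held in that fit without replicate 1, which was chosen after seeing the data, and it changed no other count by over 1.5 times. DESeq2 gave 2 at 24 h and 10 Gy, 2 for 20 against 10 Gy at 12 d and 2 for wild against C56BL6 mice (0 with edgeR). All groups in one fit gave 2, 2 and 3 in the same comparisons, and no expression filter gave 1 in the last. No paired analysis was possible for wild against C56BL6 mice because the animals differ.

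With 1 replicate left out the counts ran from 0 to 1 (24 h, 20 Gy), 0 to 1 (24 h, 10 Gy), 3 to 4 (12 d, 20 Gy), 1 to 3 (12 d, 10 Gy), 0 to 2 (20 against 10 Gy, 12 d), 4 to 9 (passage), 4 to 6 (20 Gy against passaged), 2 to 5 (10 Gy against passaged), 0 to 1 (wild against C56BL6 mice) and 5 to 12 (differences between populations). Among changes called in any of the fits, directions turned in 4 cases, all for Car12, without replicate 1 and also, not called, with the block. Changes of Car12 called in no fit changed sign as well, such as that of wild mice with passage (-0.56, and 0.26 without replicate 2). With 1 replicate left out, its change in C56BL6 mice ran from -1.77 to 2.42 at 20 Gy, from -1.83 to 2.10 at 10 Gy and from -1.14 to 2.37 with passage, and the spiny minus C56BL6 difference in passage response from -3.11 to 0.59. The cause was not tested. Limits are the low depth behind Car4, Car8 and mouse Car2 and Car3, and 4 animals per population by the library names, a number in doubt for wild mice.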
